A study of Mus musculus with 6 samples.

Results

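Cytosolic ribosomal protein genes encode the proteins of the small and the large subunit of the ribosome that translates nuclear mRNAs. They were taken as all gene symbols of the table made of Rpl or Rps and a number with the endings of known variants, together with Rplp0, Rplp1, Rplp2 and Rpsa, without the S6 kinases and without rows whose symbol marks a pseudogene with -ps. The rule gave 86 of the 14254 genes in the table. They comprised 48 genes of the large subunit, 35 of the small subunit and the 3 genes of the P stalk. Another 4 symbols that match the rule, Rpl10l, Rpl39l, Rpl3l and Rps12l1, were not analysed here. The expression of Rplp0 and Rps3, which mark the set, was high in every library.

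RNA of mouse pancreatic ductal adenocarcinoma organoids of the line KPF_5.3G was sequenced in 3 samples that carried an shRNA against Jag1 (shJag1_3, genotype label Jag1 knockdown) and 3 with a control shRNA (shCtrl, genotype label WT). Jag1 is a membrane ligand of Notch receptors, and the design asks what it does in tumour-initiating cells of high CD9 that express epithelial and mesenchymal genes together. All samples come from 1 line, were transduced with lentivirus, and grew in a pancreatic organoid medium whose growth factors included EGF, Noggin and R-spondin-1. The knockdown rests on 1 hairpin, and the labels give no age, sex or strain of the source animal. The design calls the samples biological replicates, and nothing says what a replicate number shares between the groups.

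Every ribosome needs a copy of nearly every ribosomal protein, and cells match the output of these genes to growth. Most of their mRNAs begin with a C followed by a run of pyrimidines, the terminal oligopyrimidine tract, through which mTOR controls their translation by way of the binding protein Larp1. The transcription factor Myc raises ribosomal protein genes and the factors that assemble ribosomes. Some genes have a variant copy, such as Rpl22l1 beside Rpl22, and in mice the Rpl22 protein is known to repress Rpl22l1 by binding its mRNA.

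The start regions of 6 members are shown because 4 of them, Rpl14, Rps15a, Rps18 and Rps27, were lower in the knockdown of replicates 2 and 3 and begin with such a tract at the start that RefSeq lists (GRCm38.p6), while Rpl22 and Rpl22l1 moved in opposite directions there. The 4 are examples, since the knockdowns lay below both controls there in 77 of 86 members. A link between the tract and the change was not tested. Each line gives 40 bases before the start and 20 bases from it on, 5′ to 3′ on the strand of the gene. Capitals mark the run of C and T that begins at the start base and, in Rpl22l1, the letters TATAAA.
Rpl14, chr9:120571477-120571536, plus strand: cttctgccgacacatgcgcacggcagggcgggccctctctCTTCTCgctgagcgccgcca
Rps15a, chr7:118116128-118116187, minus strand: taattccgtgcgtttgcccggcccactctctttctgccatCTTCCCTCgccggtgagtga
Rps18, chr17:33955646-33955705, minus strand: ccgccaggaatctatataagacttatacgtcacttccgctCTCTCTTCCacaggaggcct
Rps27, chr3:90213629-90213688, minus strand: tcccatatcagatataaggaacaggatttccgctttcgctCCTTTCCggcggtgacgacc
Rpl22, chr4:152325686-152325745, plus strand: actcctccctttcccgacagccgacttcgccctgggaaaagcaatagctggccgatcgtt
Rpl22l1, chr3:28805468-28805527, plus strand: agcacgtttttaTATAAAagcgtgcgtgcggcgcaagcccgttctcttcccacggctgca

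RefSeq start regions, from 250 bases before the start to 50 after it, were matched by symbol for 62 of the 86 members. A C at a listed start followed by at least 4 bases that are each C or T was found in 14 of the 62 members (22.6%) and in 3.04% of the 10169 tested genes with a start region. The same start was found in 3 of 11 snoRNA host genes (27.3%), 4 of 13 other oligopyrimidine mRNAs (30.8%) and 1 of 67 ribosome assembly factors (1.49%) with a start region. The letters CTTTCC lay within 20 bases of a start in 10 members (16.1%), against 2.39% of the tested genes. The letters CCGGAAG or their reverse complement CTTCCGG, the core bound by ETS factors such as Gabpa, lay anywhere in the region in 25 members (40.3%), against 20.3% of the tested genes and 26 of 67 assembly factors (38.8%). TATAAA between 40 and 21 bases before a start was found in 1 member, Rpl22l1, and in 1.49% of the tested genes. The last 3 searches may overlap the tract or each other, CTTTCC and TATAAA were read on the strand of the gene only, and a listed start can lie some bases from the start in use.

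The libraries held 22110664 to 35010147 gene reads, and 1539248 to 2317853 of them fell on the members. Jag1 had 226, 321 and 557 normalised counts in shJag1_3 libraries 1, 2 and 3, against 412, 983 and 847 in shCtrl libraries 1, 2 and 3. The groups thus overlapped, and the limma log2 change of -1.03 (SE 0.45) had an adjusted p of 0.691. Within the replicate pairs the knockdown held 55.0%, 32.6% and 65.8% of the control's Jag1, and DESeq2 with the replicate number in the model gave a log2 change of -1.02 (adjusted p = 0.00637). The 7 epithelial and ductal markers Krt8, Krt18, Krt19, Epcam, Cdh1, Sox9 and Cldn4 were expressed. Their summed level was 181784 to 473880.1 normalised counts in shJag1_3 and 135018 to 177812 in shCtrl. Their median limma log2 change was 1.08, and limma called 0 over all libraries. DESeq2 with the replicate number called 4 higher (against 4.54% of all tested genes) and 0 lower (against 2.62%). Of 16 markers of fibroblasts, immune, endothelial, acinar and endocrine cells, 3 were measured, Pdgfrb, Cd68 and Cela1, with a summed level of 192 to 1020 in shJag1_3 and 141 to 180 in shCtrl (Cd68 alone 117, 988 and 400.4 against 98.6, 136 and 111), and the part of these cells in the results was not tested. Both replicate 1 libraries stand apart from the other 4, so values are given by replicate number and the counts of calls also without replicate 1. In bulk RNA, fewer cells of a type and less RNA per cell cannot be told apart. The labels do not say whether the biological replicates were separate cultures or transductions, so p-values measure only the spread between these samples.

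Ribosomal protein genes took a smaller share of the reads in the knockdown of replicates 2 and 3 and a larger one in the knockdown of replicate 1. Their share of gene reads was 7.83%, 6.70% and 5.84% in shJag1_3 libraries 1, 2 and 3, against 6.83%, 9.27% and 8.62% in shCtrl libraries 1, 2 and 3. Controls 2 and 3 stood above the other 4 libraries, and control 1 stood among the knockdowns. The group means were 6.79% ± 0.997 in shJag1_3 and 8.24% ± 1.26 in shCtrl (SD, n = 3 each), a difference of -1.45 percentage points. In the replicate pairs 1, 2 and 3 the difference was 1.00, -2.57 and -2.78 percentage points, or 1.15, 0.723 and 0.677 times the share of the control. This share does not depend on the size factors, since it is taken within a library.

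**Figure D1:**
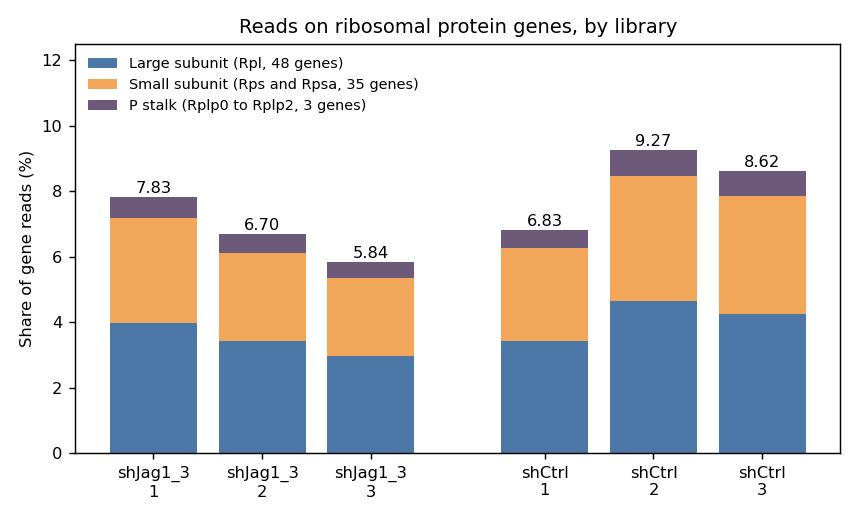
Share of gene reads (%) on ribosomal protein genes in each library, stacked by large subunit, small subunit and P stalk genes, with the sum above the bar. The 3 knockdown libraries lie between 5.84% and 7.83%, control 1 at 6.83%, and controls 2 and 3 at 9.27% and 8.62%.

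Other shares of the reads also differed between libraries. Like the share of the members, those of mitochondrial transcripts and of Spp1 were highest in controls 2 and 3, and that of spike-in RNA was not. Mitochondrial transcripts took 0.555%, 1.02% and 1.20% of gene reads in shJag1_3, against 0.595%, 1.55% and 2.03% in shCtrl. Spp1, which encodes the secreted protein osteopontin, took 0.0681%, 0.118% and 0.0673% in shJag1_3, against 0.0862%, 0.804% and 0.769% in shCtrl. Without mitochondrial reads the members' difference was -1.51 percentage points. ERCC spike-in RNA took 0.740%, 1.04% and 0.462% of all reads in shJag1_3, against 0.529%, 0.668% and 0.711% in shCtrl. Mitochondrial and Spp1 shares were lower in the knockdown of all 3 pairs, and the spike-in share was higher in that of pairs 1 and 2 and lower in that of pair 3. The part of these in the result was not tested.

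Gene by gene, the members moved nearly together. Of 86 members, 79 (91.9%) were higher in the knockdown of pair 1 and lower in the knockdown of pairs 2 and 3, a pattern that 16.3% of all 13997 tested genes showed. The median log2 change of the members was 0.27, -0.44 and -0.60 in pairs 1, 2 and 3, and that of all tested genes was 0.01, -0.01 and 0.01. The interquartile range of the members was 0.11, 0.26 and 0.22 log2 units in the 3 pairs, against 0.45, 0.79 and 0.70 for all tested genes. Most members have many reads, with at least 500 in every library for 81 of them, and the part of counting noise in the wider spread of all genes was not tested. The 7 exceptions to the pattern were Rpl22l1, Rps4l, Rpl32l, Rpl41, Rps27l, Rps2 and Rpl7l1.

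**Figure D2:**
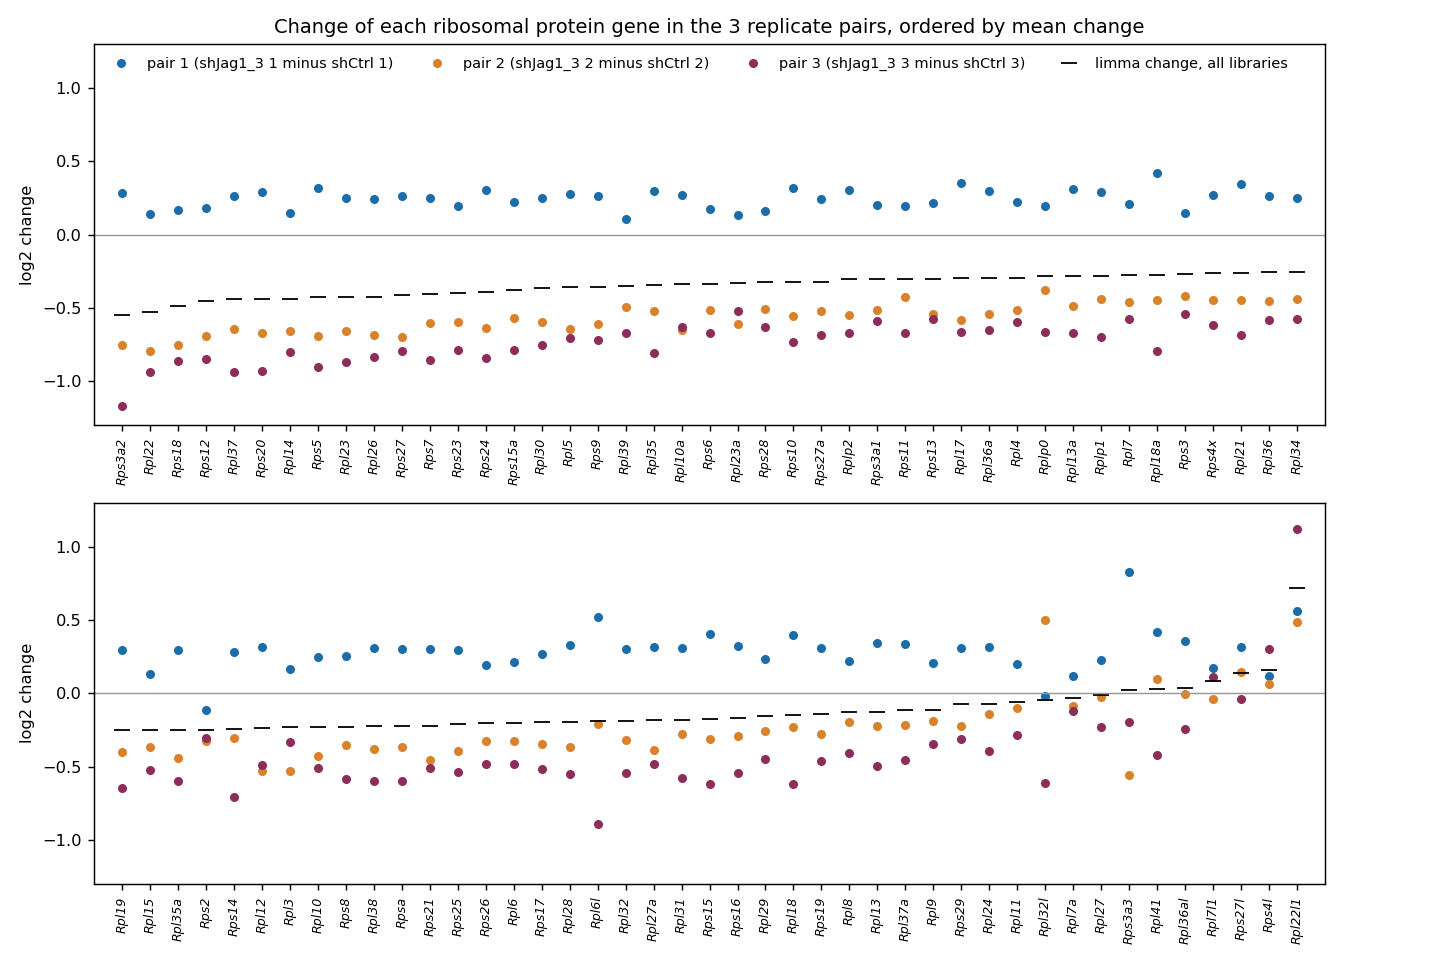
The log2 change (knockdown minus control) of each of the 86 members in pairs 1, 2 and 3 (points) and the limma change over all libraries (dashes), ordered by that change from lowest to highest over both rows. Pair 1 lies above 0 for 84 members, while pair 2 lies below 0 for 81 and pair 3 for 83.

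The same order shows within the groups. Control 1 was below controls 2 and 3 in 78 of 86 members, with a median log2 difference of -0.58 from their mean. Knockdown 1 was above knockdowns 2 and 3 in 73 members, with a median of 0.25. The highest value was in control 2 for 65 members and the lowest in knockdown 3 for 66. All 3 knockdown libraries lay below controls 2 and 3 in 69 members. Over all tested genes, the median difference of replicate 1 from the mean of 2 and 3 was -0.0030 in shCtrl and -0.0029 in shJag1_3. Against the mean of libraries 2 and 3 of its group, control 1 was lower in 78 of 86 members and in 7023 of 13997 tested genes. On this measure knockdown 1 was higher in 84 members and in 6974 tested genes. The other counts of this paragraph were taken over the members only, and the shares of all genes that they compare with were not computed.

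No member passed the test over all libraries. In limma on log2(normalised count + 1), 0 of 86 members and 0% of the 13997 tested genes had an adjusted p below 0.05, with 1 member, Rpl22l1, and 1021 genes at an unadjusted p below 0.05. The median log2 change of the members was -0.25, against 0.00 for all tested genes. The change was negative in 79 of 86 members, against 49.7% of all tested genes. edgeR called 0 members and 0% of all genes, and DESeq2 called 0 members, with 0.729% of all genes higher and 0.536% lower. When the model also held the replicate number (the blocked fit), limma and edgeR called 0 members and 0.0143% of all genes, and DESeq2 called 1 member higher, Rpl22l1, and 0 lower, where it called 4.54% of all genes higher and 2.62% lower. The members' median log2 change was -0.13 without control 2 and -0.45 without control 1, with 0 calls in either, and by scaling to spike-in RNA it was -0.43 where that of all genes was -0.18.

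In replicates 2 and 3 alone, part of the set fell. There the knockdown libraries lay below both controls in 77 of 86 members (89.5%), against 28.9% of all tested genes, and above both in 1, Rpl22l1, against 29.8%. The median log2 change there was -0.52. limma called 13 members lower (15.1%, against 3.57% of all tested genes) and 0 higher (against 6.04%). edgeR called 11 lower (against 3.58%) and 0 higher (against 5.7%). DESeq2 called 30 lower (against 5.97%) and 1 higher (against 9.44%). The 13 were Rpl5, Rpl14, Rpl22, Rpl26, Rpl30, Rpl37, Rps7, Rps12, Rps15a, Rps18, Rps20, Rps24 and Rps27, with limma log2 changes between -0.67 and -0.86 and adjusted p between 0.0283 and 0.0496. The fit rests on 2 libraries a group.

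The medians of the small and the large subunit lay close together. The 35 small subunit genes had a median limma log2 change of -0.30 and pair medians of 0.26, -0.50 and -0.62, and the 48 large subunit genes had a median of -0.23 and pair medians of 0.27, -0.41 and -0.58. Of the 13 members called lower in replicates 2 and 3, 7 belong to the small subunit and 6 to the large. The difference between the subunits was not tested.

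Among small subunit genes, Rps18 and Rps12 were the protein-coding members of that subunit with the most negative change. Rps18 (chromosome 17, 33951999 to 33956001, minus strand), whose protein lies in the head of the small subunit, had 24946, 22258 and 20394 normalised counts in shJag1_3, against 22243, 37469 and 37089.9 in shCtrl. Rps12 (chromosome 10, 23785183 to 23787275, minus strand), which is needed for competition between cells in flies, had 31547, 28277 and 25139.9 in shJag1_3, against 27784, 45646 and 45282 in shCtrl. In both genes control 1 lay among the knockdowns, and controls 2 and 3 lay above all 3 of them. Their limma log2 changes were -0.48 (SE 0.25, adjusted p = 0.727) and -0.45 (SE 0.25, adjusted p = 0.753). In replicates 2 and 3 alone they were -0.81 (adjusted p = 0.0291) and -0.77 (adjusted p = 0.0363) in limma.

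Rps20, whose protein lies in the head of the small subunit, had 21552, 20250.2 and 16304 normalised counts in shJag1_3, against 17615, 32258 and 31067 in shCtrl. Rps3, whose protein sits at the mRNA entry of the small subunit, averaged 35828 ± 3954 in shJag1_3 and 43903 ± 10662 in shCtrl (SD, n = 3 each). Its log2 change was -0.27 (SE 0.24, limma adjusted p = 0.858) and -0.48 in replicates 2 and 3 (limma adjusted p = 0.16). Rps19, the first gene tied to Diamond-Blackfan anaemia, had 22380.3, 21362 and 16829 in shJag1_3, against 18049, 25930.1 and 23143 in shCtrl, and knockdowns 1 and 2 lay within the range of the controls.

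Rps2 differed from the rest of the small subunit. This protein of the mRNA entry had 72872, 51150.1 and 52209.8 normalised counts in shJag1_3, against 78989, 63988 and 64350.0 in shCtrl. It was highest in the replicate 1 library of each group and lower in the knockdown of every pair, by 0.12, 0.32 and 0.30 log2 units, the 1 member of the 86 with that pattern, which 19.7% of all tested genes showed. Its limma log2 change was -0.25 (SE 0.24, adjusted p = 0.869).

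Among large subunit genes, Rpl37, Rpl5 and Rpl11 show the range. Rpl37, a zinc-binding protein, had 10924, 10087 and 7932 normalised counts in shJag1_3, against 9112, 15717 and 15172 in shCtrl, a limma log2 change of -0.44 (SE 0.26, adjusted p = 0.776). The Rpl5 and Rpl11 proteins form a particle with 5S rRNA that inhibits Mdm2 and so stabilises p53. Rpl5 had 27437, 24673 and 22549.5 in shJag1_3, against 22644, 38471 and 36683 in shCtrl, and its change in replicates 2 and 3 was -0.67 (limma adjusted p = 0.0472). Rpl11 had 25929.7, 21178 and 18002 in shJag1_3, against 22596, 22688 and 21869.8 in shCtrl, so its controls lay close together and within the range of the knockdowns. Its limma log2 change was -0.06 (SE 0.19, adjusted p = 0.971).

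The P stalk proteins recruit the elongation factors to the ribosome. Rplp0 had 89529.9, 86179 and 72903 normalised counts in shJag1_3, against 78292, 112090.4 and 115671 in shCtrl. Its limma log2 change was -0.28 (SE 0.25, adjusted p = 0.854), and those of Rplp1 and Rplp2 were -0.28 and -0.30. In replicates 2 and 3 the 3 stalk genes had limma adjusted p between 0.0765 and 0.125. In Rplp0 and Rplp2 control 1 lay within the range of the knockdowns, in Rplp1 just below it, and in all 3 genes controls 2 and 3 lay above it.

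Levels per transcript length differed widely between members. Over the 81 members that the annotation calls protein coding, the median was 30022 normalised counts per kb of annotated transcript. Rplp1 was the highest, with a mean of 107556 per kb and a range of 82564 to 140962 over the 6 libraries. Rps12, Rplp0 and Rps2 followed with means of 68716, 68074 and 64055 per kb, and their ranges overlapped. The lowest was Rpl7l1 with 1544 per kb, followed by Rps15a (2773), Rpl22l1 (4524), Rpl24 (5978) and Rps27l (6053). The annotated transcripts of Rps15a and Rps20 measure 5130 and 3706 bases, so their values per kb are understated if a shorter transcript is in use.

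**Figure D3:**
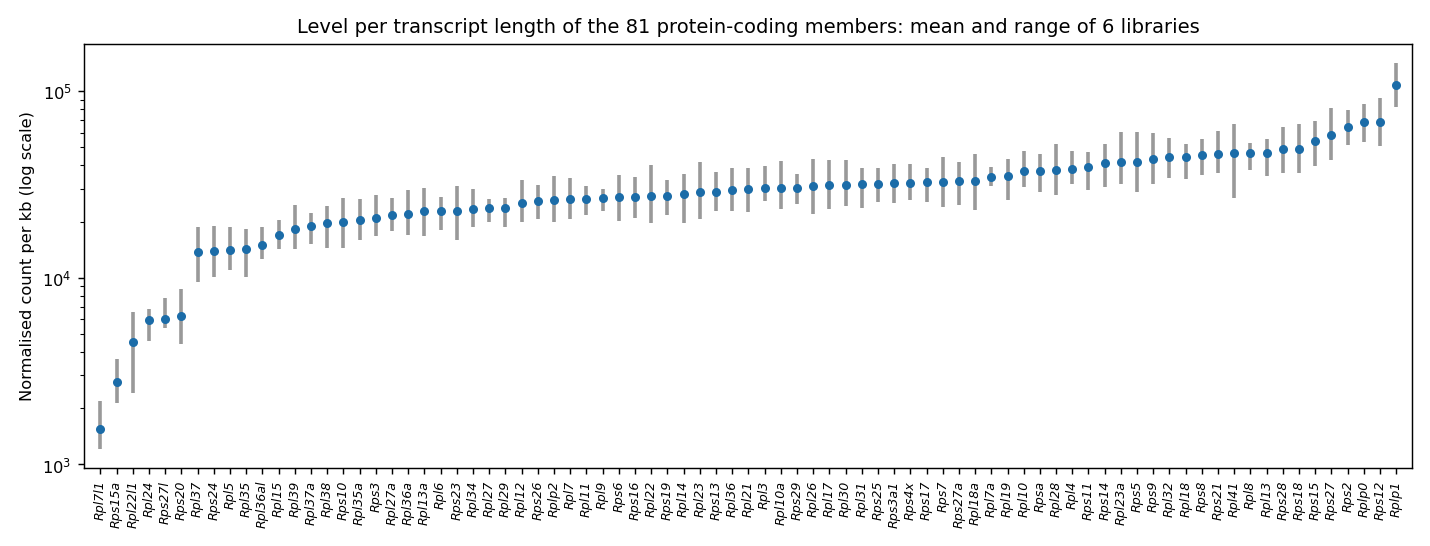
Normalised counts per kb of annotated transcript (log scale) for the 81 protein-coding members, ordered from low to high; points are means and grey lines the range of all 6 libraries. Rplp1 stands highest at 107556 per kb and Rpl7l1 lowest at 1544 per kb.

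Of the variant genes with a partner, Rpl22l1, Rps27l and Rpl7l1 departed from the pattern of most members, and Rpl36al kept it with a change in pair 2 near 0. Rpl22l1 (ENSMUSG00000039221, chromosome 3, 28805436 to 28807424, plus strand) was the 1 member whose groups did not overlap over all 6 libraries. It was higher in the knockdown, as 6.29% of all tested genes were without overlap, and 0 members were lower without overlap, against 5.44% of all tested genes. It had 3632, 2727 and 2883 normalised counts in shJag1_3, against 2465, 1949 and 1327 in shCtrl. The means were 3080.5 ± 484 in shJag1_3 and 1913 ± 569.9 in shCtrl (SD, n = 3 each). The limma log2 change was 0.72 (SE 0.26, adjusted p = 0.651), and in the blocked fit DESeq2 gave 0.72 (SE 0.21, adjusted p = 0.0128), limma an adjusted p of 0.149 and edgeR one of 0.183. Scaling to spike-in RNA gave 0.54. In replicates 2 and 3 the adjusted p was 0.019 in DESeq2, 0.0721 in limma and 0.0824 in edgeR.

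Rpl22 (ENSMUSG00000028936, chromosome 4, 152325742 to 152334071, plus strand), an RNA-binding protein of the large subunit, had the most negative change of the protein-coding members. It had 10883, 10961 and 9263 normalised counts in shJag1_3, against 9875, 18959 and 17756 in shCtrl. Control 1 lay among the knockdowns, and controls 2 and 3 lay above them. The limma log2 change was -0.53 (SE 0.28, adjusted p = 0.727). In replicates 2 and 3 it was -0.86 (SE 0.15, limma adjusted p = 0.0283), and the adjusted p of edgeR was 0.0309 and that of DESeq2 5.38e-04.

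Counts of Rpl22l1 amounted to 33.4%, 24.88% and 31.1% of those of Rpl22 in shJag1_3 libraries, against 24.96%, 10.3% and 7.47% in shCtrl libraries, with no correction for length. Control 1 and knockdown 2 were close to each other, which is where the groups overlapped. The log2 ratio averaged -1.76 ± 0.22 in shJag1_3 and -3.01 ± 0.90 in shCtrl (SD, n = 3 each), a difference of 1.25, and it was higher in the knockdown of each pair, by 0.42, 1.27 and 2.06. The two-sided p of an exact permutation of the libraries was 0.2, or 0.4 after adjustment over the 4 variant pairs, and the smallest that 3 against 3 allow is 0.1. Flipping the signs of the 3 differences in an exact test gave p = 0.25, its smallest value.

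**Figure D4:**
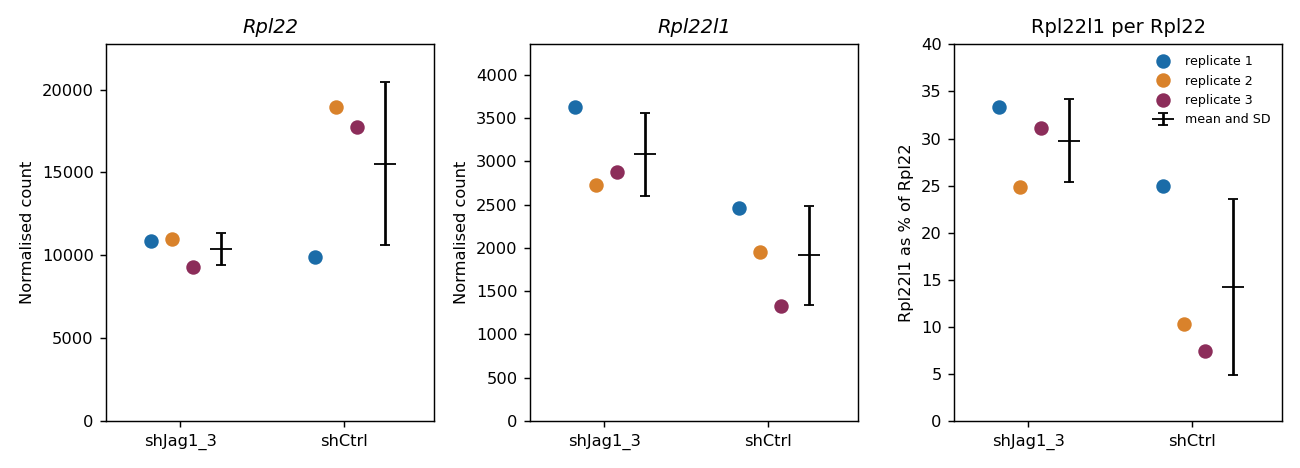
Normalised counts of Rpl22 (left) and Rpl22l1 (middle), and Rpl22l1 as a percent of Rpl22 (right), in shJag1_3 and shCtrl organoids; points are libraries coloured by replicate number, and bars are the mean and SD of 3. Rpl22l1 is at 2727 to 3632 in the knockdown and 1327 to 2465 in controls, while Rpl22 is high in controls 2 and 3 only.

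The other variant pairs differed less. Rps27l, a p53 target beside Rps27, had 3891, 2969 and 2690.4 normalised counts in shJag1_3, against 3128, 2684 and 2761 in shCtrl. Its log2 ratio to Rps27 was higher in the knockdown by 0.05, 0.85 and 0.76 in pairs 1, 2 and 3 (mean difference 0.55, exact permutation p = 0.3). Rpl36al had 9785, 7717 and 6626 in shJag1_3, against 7656, 7725 and 7833 in shCtrl, and its ratio to Rpl36a differed by 0.06, 0.54 and 0.41 (exact permutation p = 0.3). Rpl7l1 had 5724, 3164 and 3592 in shJag1_3, against 5084, 3256 and 3317 in shCtrl, and its ratio to Rpl7 differed by -0.04, 0.42 and 0.69 (exact permutation p = 0.5). After adjustment over the 4 pairs these p were 0.4, 0.4 and 0.5. In each of these pairs the ratio in control 1 lay within the range of the knockdowns or above it, and controls 2 and 3 lay below all knockdowns.

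Rpl41, which encodes the shortest ribosomal protein, ranged from 14603 in knockdown 3 to 36327 in knockdown 1, against 27171, 26159 and 19533 in shCtrl, and its limma log2 change was 0.03 (SE 0.36), or -0.15 by scaling to spike-in RNA. Rps4l had 466, 147 and 135 normalised counts in shJag1_3, against 429, 141 and 109.6 in shCtrl, and thus followed the replicate number. Rps4l, Rps3a2, Rps3a3, Rpl6l and Rpl32l are annotated as processed pseudogenes although their symbols match the rule. Rps3a2 had 99.98, 66.4 and 64.2 normalised counts in shJag1_3, against 82.0, 113 and 146 in shCtrl, and the other 3 stayed at means of 23.9 to 72.8 in shJag1_3 and 24.1 to 84.1 in shCtrl. Reads of such copies may belong to the parent gene, so their values are uncertain. The 67 rows with -ps symbols held 0.0246% to 0.0311% of gene reads in shJag1_3 and 0.0280% to 0.0389% in shCtrl, far below the share of the members.

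Members were also set against the library's own median over the 77 members that are neither variants nor pseudogene copies. This takes out by construction a shift that the members share. On this scale 7 members (8.14%) were higher without overlap, against 7.59% of all tested genes, and 2 (2.33%) were lower, against 1.46%. The 2 lower ones were Rps18 and Rps12, at -0.17 and -0.14 log2 units on average, and the 7 higher ones, Rpl10, Rpl27a, Rpl32, Rpl35a, Rpl36, Rps16 and Rps19, ranged from 0.05 to 0.17. The shares of higher and of lower members are near those of all genes. All genes were measured against the same median of members here, and on normalised counts 6.29% were higher and 5.44% lower without overlap.

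Fau and Rack1, proteins of the small subunit whose symbols the rule does not match, showed the pattern of most members. Fau, a fusion of a ubiquitin-like domain with a ribosomal protein, had a limma log2 change of -0.12 (SE 0.28, adjusted p = 0.954), with pair values of 0.43, -0.13 and -0.66. Rack1, the scaffold on the small subunit, had 37406, 35121 and 30048 normalised counts in shJag1_3, against 31555, 49465 and 48792 in shCtrl, a limma log2 change of -0.32 (SE 0.24, adjusted p = 0.828). Both were higher in the knockdown of pair 1 and lower in that of pairs 2 and 3.

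Other mRNAs with an oligopyrimidine start, among them elongation factors, went the same way as a list. Of the 20 genes, 19 had a negative limma log2 change, against 49.7% of all tested genes. The list's median was -0.32, with pair medians of 0.11, -0.45 and -0.56. limma called 0, and DESeq2 in the blocked fit called 1 lower (against 2.62% of all tested genes) and 0 higher (against 4.54%). Without replicate 1, limma called 3 lower, Eef1b2, Pabpc1 and Npm1 (against 3.57% of all tested genes), and 0 higher. The gene called by DESeq2 was Npm1, a nucleolar chaperone of ribosome assembly, with 41994, 35084 and 38759 normalised counts in shJag1_3, against 48569, 69860.1 and 67954 in shCtrl (log2 change -0.67, SE 0.21, adjusted p = 0.0274 in DESeq2). The list includes Fau and Rack1.

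Non-coding host genes of snoRNAs, many of whose spliced transcripts begin with such tracts, showed lower medians than the members. All 11 tested genes had a negative limma log2 change, against 49.7% of all tested genes. The list's median was -0.56, with pair medians of 0.01, -1.04 and -0.74. DESeq2 in the blocked fit called 2 lower, Gas5 and Zfas1 (against 2.62% of all tested genes), and 0 higher. With replicate 1 left out, limma called 6 lower, Gas5, Zfas1, Snhg1, Snhg8, Snhg12 and Snhg17 (against 3.57% of all tested genes), and 0 higher. Gas5, a host of many snoRNAs, had 5734, 5323 and 5239 normalised counts in shJag1_3, against 5685, 14889.9 and 12681 in shCtrl (log2 change -0.92, SE 0.30, adjusted p = 0.0334). Zfas1 had 1699, 1831 and 1668 in shJag1_3, against 1676, 5335 and 4421 in shCtrl (log2 change -0.99, SE 0.32, adjusted p = 0.0303). In both genes control 1 was at the level of the knockdowns. limma called neither over all libraries. Leaving out 1 library at a time, the limma log2 change ranged from -1.34 to -0.65 for Gas5 and from -1.49 to -0.65 for Zfas1.

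Factors that make ribosomes had negative medians with smaller changes in pair 3. The 38 factors of small subunit assembly had a median limma log2 change of -0.22 and pair medians of 0.01, -0.52 and -0.13, and the 43 of large subunit assembly had -0.25 and 0.04, -0.53 and -0.24. DESeq2 in the blocked fit called 1 of these 81 genes lower (against 2.62% of all tested genes) and 0 higher (against 4.54%). The gene called was Wdr75, a subunit of the small subunit processome. It had 1492, 1015 and 1404 normalised counts in shJag1_3, against 2157, 2056 and 2074 in shCtrl. Its groups did not overlap, as in 5.44% of all tested genes that were lower in the knockdown without overlap. Its log2 change was -0.70 (SE 0.20, adjusted p = 0.0103 in DESeq2). Tma16, Noc3l and Heatr3 were the large subunit factors with the largest changes. None of them passed in the blocked fit of DESeq2 (log2 changes -0.75, -0.67 and -0.65, adjusted p from 0.0502 to 0.0708). DESeq2 on replicates 2 and 3 called Tma16 (-0.93, adjusted p = 0.0135) and Wdr75 (-0.77, adjusted p = 0.0151) lower. That fit called 5.97% of all tested genes lower. The 14 genes of RNA polymerase I, which transcribes ribosomal RNA, had a median of -0.20 with 0 called by DESeq2 in the blocked fit. On replicates 2 and 3, limma called 1 of these 14 genes lower, Cd3eap (-0.80, adjusted p = 0.0348), and 0 higher. Of the 81 assembly factors it called 1 lower, Nol6 (-0.81, adjusted p = 0.0393), and 0 higher. In that fit 3.57% of all tested genes were called lower and 6.04% higher. The RNA polymerase I genes with the largest changes were Cd3eap, Polr1b and Polr1a at -0.44, -0.40 and -0.38 in limma. DESeq2 on replicates 2 and 3 gave -0.80 for Cd3eap and -0.64 for Polr1b (adjusted p = 0.00351 and 0.0387).

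Initiation factors outside these lists had a median limma log2 change of -0.09 over 25 genes, with pair medians of 0.05, -0.18 and -0.09. DESeq2 in the blocked fit called 0 (against 4.54% of all tested genes higher and 2.62% lower). In replicates 2 and 3, limma called 0 (against 6.04% higher and 3.57% lower). The largest changes were those of Eif4ebp2 and Eif4ebp1, repressors of cap-dependent translation, at -0.50 and 0.44, and of Eif3g at -0.42 (DESeq2 adjusted p in the blocked fit 0.0864, 0.0948 and 0.175). Eif4ebp1 was low in replicate 1 of each group, at 2519, 8125 and 7667 in shJag1_3, against 1641, 6292 and 6129 in shCtrl.

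Among 19 regulators of growth, DESeq2 in the blocked fit called 1 higher (against 4.54% of all tested genes) and 0 lower (against 2.62%). In replicates 2 and 3, limma also called 1 higher (against 6.04%) and 0 lower (against 3.57%). A count of 1 in 19 is near the share of all genes called higher in either fit. The list's median limma log2 change was -0.10. The gene called in both was Mxd1, which competes with Myc for its partner Max. It had 1026, 13488 and 6947 normalised counts in shJag1_3, against 641, 2249.8 and 1941 in shCtrl (log2 change 1.71, SE 0.33, adjusted p = 4.58e-05 in DESeq2, and 0.756 in limma over all libraries). Myc itself had 1765, 8121 and 10582 in shJag1_3, against 1324, 15108 and 14839 in shCtrl. Both replicate 1 libraries were low in Myc, and in replicates 2 and 3 the knockdowns lay below the controls. Its log2 change was -0.33 (SE 0.27, adjusted p = 0.577 in the blocked fit of DESeq2).

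**Figure D5:**
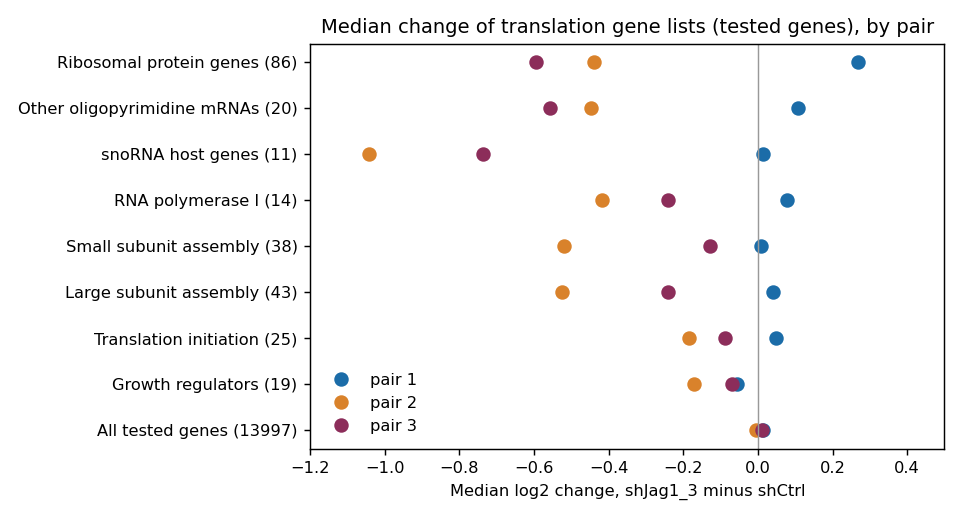
Median log2 change (knockdown minus control) in pairs 1, 2 and 3 of the ribosomal protein genes, of 7 other lists of genes for ribosome production and translation, and of all tested genes, with the number of tested genes in brackets. Ribosomal protein genes stand at 0.27 in pair 1, the highest point of the plot, and at -0.44 and -0.60 in pairs 2 and 3, while snoRNA host genes reach -1.04 and -0.74.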

How the data were processed

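The authors deposited normalised counts (a signal: reads divided by 1 size factor per library). Dividing by each library's smallest step gave whole reads for 100% of values (tolerance 0.001), and the factors equal DESeq2's median-of-ratios factors. All 6 deposited tables were identical, and 5 copies were left out. Trimmomatic, STAR 2.5.2b, GRCm38 and DESeq2 1.32.0 are named, per the submitters' processing notes, and the counting tool and annotation are not given in the sources used here. The labels' protocols name a TruSeq RNA kit that does not mark strand, so reads of overlapping opposite genes cannot be told apart, and ribosomal protein genes share reads with pseudogene copies.

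Of 14254 genes, 14219 were matched by Ensembl identifier to GENCODE M21 symbols and GRCm38 positions. Transcript length is that of the shortest APPRIS principal transcript of the best support level. Start regions come from RefSeq. The main test was limma-trend 3.58.1 (R 4.3.3) on log2(normalised count + 1) for the 13997 genes that reached 10 in 3 or more samples, adjusted by Benjamini-Hochberg (threshold 0.05), and all 86 members passed this filter. Changes are knockdown minus control. edgeR 4.0.16 (quasi-likelihood) and DESeq2 1.42.0 ran on the recovered reads. The fits over all 6 libraries, with and without the replicate number, were tested on simulated data. Those on fewer libraries were not.

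Replicate numbers were treated as pairs, since deviations from group means correlated across genes at r = 0.68, 0.57 and 0.44 for same-numbered libraries 1, 2 and 3. What a number shares is not stated, and crossing numbers 2 and 3 gave 0.38 and 0.37. The deviations of 3 libraries sum to 0 for each gene. A match of the replicate 1 libraries alone thus makes libraries 2 and 3 correlate between the groups. The pairing of 2 with 2 and of 3 with 3 rests only on the gap to the crossed values. limma called no gene over all libraries, in any list, so calls of the blocked DESeq2 fit are also given, a choice made after seeing the data.

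Members, lists and tests were chosen with earlier results of these data known, and some genes of the lists are not reported here and do not enter their counts or sums. Named were Rplp0, Rps3, Rps19, Rpl5, Rpl11, variant pairs, the 6 largest changes in each direction, called members, the extremes per length, and up to 3 genes per other list. Rpl24, Rps15a, Rpl14, Rplp2 and the genes named beside a count were added after their values were seen.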

Additional observations from a re-analysis of the deposited data

How the results depend on the processing

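The median change of the members stayed negative under every alternative run, from -0.53 to -0.13. Under each scaling it lay about 0.26 log2 units below that of all genes. That follows from the arithmetic, since a scaling shifts all genes of a library nearly alike. The difference from all genes was -0.13 in limma without control 2 and -0.52 in DESeq2 on replicates 2 and 3. Members called moved from 0 to 1 with the replicate block in DESeq2 (0 with the block in limma and edgeR), and in replicates 2 and 3 only to 13 in limma, and, chosen after seeing the data, 31 in DESeq2 and 11 in edgeR. The block changed no other member's call. Jag1 passed in DESeq2 with the block at -1.02 (adjusted p = 0.00637) and in DESeq2 on replicates 2 and 3 at -1.06 (adjusted p = 0.00757). Leaving out 1 library gave 0 members called in each case (0 to 0), a median of -0.45 to -0.13, a share difference of -2.16 to -0.935 percentage points, and a Jag1 change of -1.41 to -0.73. Ratio differences then spanned 0.88 to 1.75 (Rpl22l1 to Rpl22), 0.36 to 0.86 (Rps27l to Rps27), 0.11 to 0.75 (Rpl7l1 to Rpl7) and 0.18 to 0.57 (Rpl36al to Rpl36a).

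Small changes turned their sign, and the cause was not tested. With spike-in scaling these were Rps27l at -0.039, Rpl7l1 at -0.10, Rpl36al at -0.14, Rps4l at -0.020, Rpl41 at -0.15 and Rps3a3 at -0.14, and in edgeR Rps3a3 at -0.0023. In replicates 2 and 3 only, limma, DESeq2 and edgeR gave -0.12, -0.12 and -0.13 for Rpl36al, -0.16, -0.10 and -0.12 for Rpl41, and -0.38, -0.36 and -0.36 for Rps3a3. Without 1 library the change ranged from -0.013 to 0.25 for Rps27l, -0.17 to 0.29 for Rpl7l1, -0.11 to 0.17 for Rpl36al, -0.41 to 0.75 for Rps4l, -0.20 to 0.066 for Rpl11, -0.25 to 0.41 for Rpl41, -0.28 to 0.20 for Rps3a3, -0.28 to 0.20 for Rpl32l, -0.20 to 0.99 for Eif4ebp1, -0.35 to 0.080 for Fau and -1.49 to 0.47 for Myc. None of these passed a test, apart from Myc in DESeq2 on replicates 2 and 3 (-0.68, adjusted p = 0.0184).

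Rpl39l and Rpl3l were planned for the ratios and were not analysed here. Depth limits the 5 pseudogene copies, whose highest mean is below 250 normalised counts.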
